A study of Mus musculus with 12 samples.

Results

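The KDM3 family of the mouse comprises Kdm3a, the gene labelled Jmjd1a in these samples, and its paralogues Kdm3b and Jmjd1c. All probes whose accession on the array maps to these 3 genes were taken, each on its own, which gave 5 of the 41174 probes of the array: 2 for Kdm3a, 1 for Kdm3b and 2 for Jmjd1c. All 5 passed the filter on dim probes, and 4 of them were well above background on all 12 arrays. Where a gene has a pair of probes, probe 1 is the brighter. Kdm3a is the gene that was mutated, so the questions were how much of its signal each probe kept in the mutants, and whether the signal of either paralogue was higher there.

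KDM3 proteins carry a JmjC domain, an iron-dependent and 2-oxoglutarate-dependent oxygenase fold. Kdm3a and Kdm3b remove mono- and dimethyl marks from lysine 9 of histone H3, marks that the methyltransferases Ehmt1 and Ehmt2 place and that go with silent chromatin. The demethylase activity of Jmjd1c itself is debated. Kdm3a is known in mice for roles in the gonad at sex determination, in late spermatid development and in fat metabolism, and its promoter is a known target of the hypoxia factor Hif1a.

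RNA came from gonadal somatic cells of embryos at embryonic day 11.5, with 3 embryos for each combination of sex and genotype, 4 groups in all. Controls were heterozygous and mutants homozygous for the Jmjd1a mutant allele, so every control also carried 1 mutant copy and no wild-type group was measured. All groups carried a transgene that places CD271, a surface protein, under Nr5a1 control, and cells from gonads and mesonephroi were captured magnetically by it. Each array held the RNA of a single embryo, and the sources used here give neither strain nor litter nor the part of the gene that the allele removes. A probe outside the removed part would report transcript that remains, and the positions of the probes within the transcripts were not used here.

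A level is the log2 processed signal less the log2 of its array's 75th percentile. A change is a log2 difference of group means from a limma fit over all 12 arrays, with the standard error of that fit, and n = 3 embryos per group throughout. The 75th percentile itself ranged from 142.9 to 299.5 over the arrays, a 2.10-fold range, and 58.0% to 65.2% of spots were well above background. The arrays lay on 3 slides: mutant male 1 shared slide 1 with all control males, the other mutant males shared slide 2 with control females 1 and 2, and all mutant females shared slide 3 with control female 3. All 6 markers of gonadal somatic cells, among them Nr5a1 and Wt1, were well above background on all arrays of every group. No array can tell fewer cells of a type from less RNA per cell.

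Of 5 annotated start windows of Kdm3a and Jmjd1c, 3 are shown to place the genes and because hypoxia factors act on the Kdm3a promoter. Start windows of Kdm3b were not examined. RefSeq lists the starts on GRCm38.p6 in windows of 250 bases before to 50 after the start. Kdm3a lies on the minus strand of chromosome 6, with its first start window at chr6:71632868-71633167 and another, start 3, at chr6:71609090-71609389, 23778 bases downstream. Jmjd1c lies on the plus strand of chromosome 10, with its first window at chr10:67126838-67127137. Each is written 5′ to 3′ on the strand of its gene, and capitals mark ACGTG or GCGTG, core motifs bound by hypoxia factors, searched on both strands (a match on the other strand reads CACGT or CACGC).
Kdm3a start 1: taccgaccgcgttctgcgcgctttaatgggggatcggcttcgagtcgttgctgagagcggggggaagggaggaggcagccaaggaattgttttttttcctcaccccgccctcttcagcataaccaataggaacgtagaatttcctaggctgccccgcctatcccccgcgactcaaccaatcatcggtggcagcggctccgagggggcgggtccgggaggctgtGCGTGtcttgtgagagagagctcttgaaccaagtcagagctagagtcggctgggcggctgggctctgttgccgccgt
Kdm3a start 3: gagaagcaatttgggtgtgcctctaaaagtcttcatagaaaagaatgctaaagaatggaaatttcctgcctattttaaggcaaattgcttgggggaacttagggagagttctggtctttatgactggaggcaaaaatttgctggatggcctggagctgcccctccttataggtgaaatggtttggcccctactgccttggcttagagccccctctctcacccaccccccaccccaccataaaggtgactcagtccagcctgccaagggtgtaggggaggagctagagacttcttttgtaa
Jmjd1c start 1: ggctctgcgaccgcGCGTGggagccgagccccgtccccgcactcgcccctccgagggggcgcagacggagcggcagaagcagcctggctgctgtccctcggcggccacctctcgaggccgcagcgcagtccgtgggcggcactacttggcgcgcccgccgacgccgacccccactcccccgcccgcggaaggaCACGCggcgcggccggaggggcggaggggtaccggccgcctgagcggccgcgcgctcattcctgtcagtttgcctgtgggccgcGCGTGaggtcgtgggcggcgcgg
The first Kdm3a window held 24 CpG dinucleotides and 1 GCGTG, and the window at start 3 held 0 of both motifs and 0 CpG. The first Jmjd1c window held 47 CpG and 3 GCGTG. Not printed are Kdm3a start 2, which overlaps the first window 231 bases downstream (40 CpG), and Jmjd1c start 2, 58662 bases downstream (13 CpG), both with 0 motifs. Over 32851 RefSeq windows of this length the median was 7 CpG, and 32.4% held GCGTG, 19.6% ACGTG and 43.8% either. These arrays do not measure which start was used, and a match describes letters, not binding.

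Kdm3a signal was lower on every mutant array than on any control array at both probes. At probe 1 (A_51_P116309) the control females stood at 2.91, 2.81 and 2.96 and the mutant females at 0.68, 0.75 and 0.43. Control males stood at 3.03, 2.70 and 2.85 and mutant males at 1.04, 0.99 and 0.70. The 6 control values lay within 2.70 to 3.03 and the 6 mutant values within 0.43 to 1.04, so the genotypes were apart by more than either range. All 6 mutant arrays were still well above background at this probe, with processed signals of 348 to 490 against 1100 to 2174 in the controls.

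In females probe 1 fell by 2.27 ± 0.137, which left 20.7% of the heterozygous level (95% interval 16.8% to 25.5%, limma adjusted p = 2.5e-05). In males it fell by 1.95 ± 0.137, which left 25.9% (95% interval 21.0% to 32.0%, limma adjusted p = 7.4e-05). Since the controls carried 1 mutant copy, these percentages are of a heterozygous and not of a wild-type level. The fall did not differ detectably between the sexes: the male change minus the female change was 0.33 ± 0.194, with a 95% interval of -0.10 to 0.75 (limma adjusted p = 1.00). In males 0.399% of the 25814 probes tested were called in either direction (0.329% lower and 0.0697% higher), and in females 0.294% (0.291% lower and 0.00387% higher). Both Kdm3a probes were among them in both sexes. By p-value, probe 1 ranked 7 of 25814 in males and 4 in females. Groups that do not overlap were less rare, at 12.1% of probes lower in mutant males and 7.36% lower in mutant females.

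Probe 2 (A_52_P133965) gave a far dimmer signal and fell to background in every mutant. Control females stood at -2.48, -2.66 and -2.68 and control males at -2.84, -2.61 and -2.84. Processed signals were 19.9 to 43.7 on these control arrays and 1.62 to 2.02 on the 6 mutant arrays, none of which was well above background. Set against the lowest signal that counted as well above background on the mutant arrays, the level in females was lower by a factor of at least 6.07 (limma adjusted p = 1.4e-09) and in males by at least 4.07 (limma adjusted p = 8.0e-09). At most 16.5% and 24.6% of the heterozygous level therefore remained. The measured means were -7.29 in mutant females and -6.77 in mutant males, differences of -4.69 and -4.00 that, like the adjusted p-values, rest on mutant arrays at background. With normexp background correction, which adds an offset, the fitted changes were -0.93 and -0.74 and both were still called. The difference between the sexes at this probe, 0.69 with an unadjusted p of 8.9e-04 and a limma adjusted p of 1.00, rests on the same background arrays.

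Probe 1 thus gave a measured remainder and probe 2 an upper limit. In males the limit of 24.6% lies inside the interval of probe 1. In females the limit of 16.5% lies just below that interval, 16.8% to 25.5%; the limit has an error of its own, and the difference between the probes was not tested. Within slides, probe 1 differed between genotypes by -1.82 on slide 1 (1 mutant male against 3 control males) and by -2.34 on slide 3 (3 mutant females against 1 control female). Its change stayed between -2.03 and -1.75 in males and between -2.34 and -2.11 in females under the 25 settings that gave a value. In the controls, males and females did not differ detectably at probe 1 (-0.038 ± 0.137, limma adjusted p = 0.911). Across all tested probes 0.163% were called in that sex comparison.

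**Figure D1:**
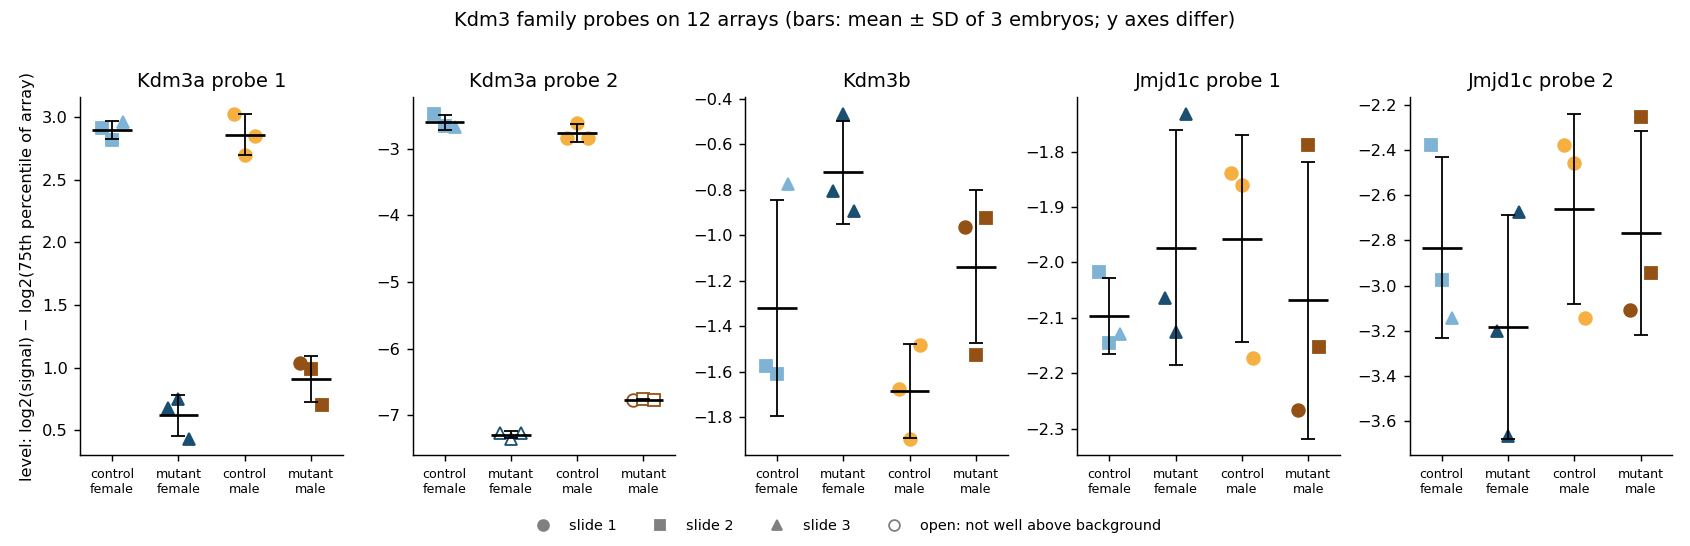
Level of each of the 5 probes on each of the 12 arrays (vertical axis, log2 relative to the array's 75th percentile) by group, with the mean and SD of 3 embryos. Marker shape gives the slide and open markers are arrays not well above background; Kdm3a probe 1 lies at 2.70 to 3.03 in controls and 0.43 to 1.04 in mutants, while the groups of Kdm3b and Jmjd1c overlap within each sex.

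Kdm3b, which encodes the paralogue with the same histone substrate, had higher mean levels in the mutants of both sexes, by a difference that did not pass the threshold. Control females stood at -1.58, -1.61 and -0.77, mutant females at -0.81, -0.46 and -0.89. Control males stood at -1.68, -1.90 and -1.48, mutant males at -0.96, -1.53 and -0.92. The groups overlapped in both sexes: control female 3 lay above mutant females 1 and 3, and mutant male 2 lay among the control males. Groups were apart with the mutants higher at 5.46% of all probes in females and 8.07% in males. In order of mean level, control males (-1.68 ± 0.207, SD) came lowest, then control females (-1.32 ± 0.475), mutant males (-1.14 ± 0.336) and mutant females (-0.72 ± 0.227). Neighbouring groups in that order overlapped, except mutant males and mutant females.

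The Kdm3b difference was 0.60 ± 0.245 in females (95% interval 0.060 to 1.14, limma adjusted p = 0.464) and 0.55 ± 0.245 in males (0.0079 to 1.09, limma adjusted p = 0.427). Averaged over the sexes it was 0.57 ± 0.173, or 1.49-fold, with a 95% interval of 0.19 to 0.95 and a limma adjusted p of 0.153. Its unadjusted p of 0.00698 stood against a background in which 22.9% of all probes had an unadjusted p under 0.05, and it ranked 1179 of 25814. An exact two-sided permutation of genotype within each sex gave p = 0.03, where the smallest possible was 0.005; this test was added after the data were examined. After adjustment 0.895% of probes were called for the mean effect, 0.0891% higher and 0.806% lower, and of the family the 2 Kdm3a probes were called. The sexes did not differ detectably in the Kdm3b difference (-0.052 ± 0.346, 95% interval -0.81 to 0.71).

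**Figure D2:**
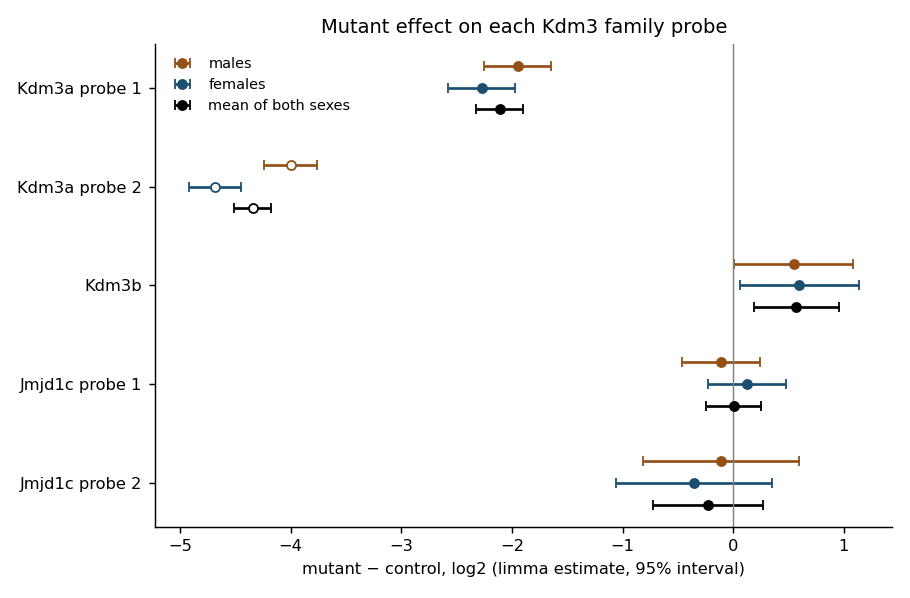
Mutant minus control difference (horizontal axis, log2) of each probe in males, in females and as the mean of both, with the 95% interval of the limma fit. Both Kdm3a probes lie below 0 throughout; the open markers of probe 2 rest on mutant arrays at background. The Kdm3b intervals begin at 0.0079 in males and 0.060 in females without passing the adjusted threshold, and the Jmjd1c intervals include 0.

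The Kdm3b level moved with the brightness of the array, and the groups were spread unevenly over the slides. Against log2 of the array's 75th percentile over the 12 arrays, Pearson's r was 0.785 (permutation p = 0.0035, adjusted over 5 probes 0.00875) and Spearman's rho 0.853 (permutation p = 0.00072, adjusted 0.0036). Without the 2 arrays farthest from the median brightness r was 0.761, and after removal of group means it was 0.639. The percentile enters both axes, since it also scales the level. The permutation shuffled all 12 arrays freely, so its p-values also take in differences between groups and slides. Mutant arrays of each sex were on average brighter, at 268.3 to 299.5 in mutant females against 188.7 to 280.0 in control females, and at 175.3 to 220.8 in mutant males against 142.9 to 220.7 in control males. With brightness as a covariate the mean Kdm3b difference was 0.36 (limma adjusted p = 0.587). On slide 3, where control female 3 was measured beside the mutant females, the difference was 0.050, and on slide 1 mutant male 1 exceeded the control males by 0.72. The part of brightness and slide in the Kdm3b difference was not tested further.

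**Figure D3:**
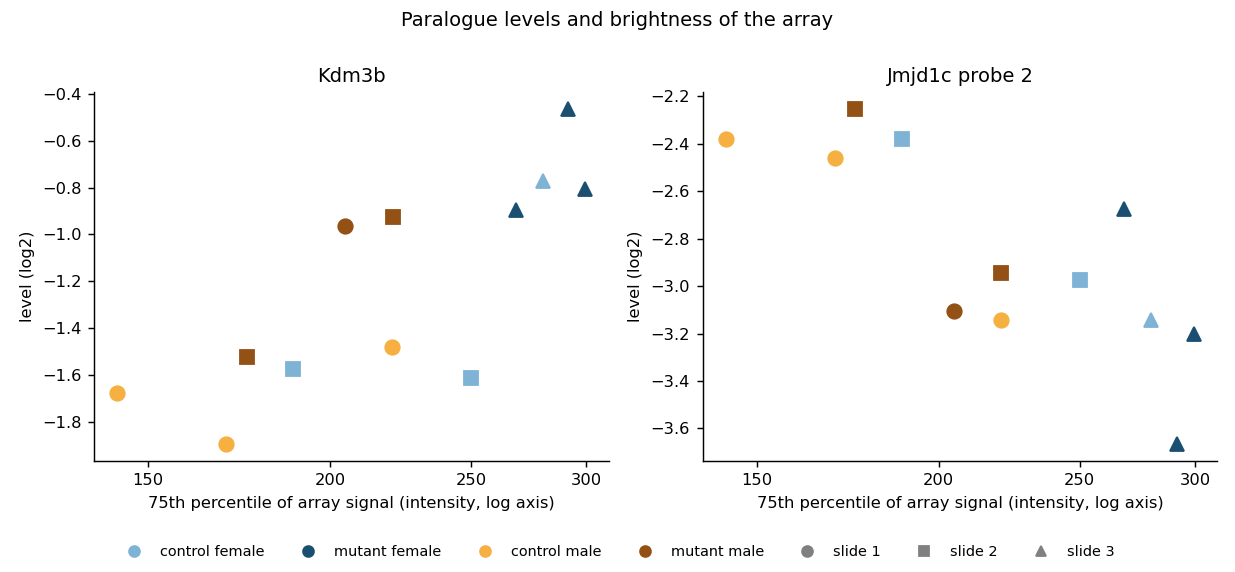
Level of Kdm3b and of Jmjd1c probe 2 (vertical axes, log2 relative to the array's 75th percentile) against that percentile (horizontal, log axis, processed signal), 1 point per array, coloured by group. The level of Kdm3b is higher on brighter arrays (r = 0.785) and that of Jmjd1c probe 2 lower (r = -0.788). The percentile enters both axes, since it is subtracted from the level.

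Control female 3 had the highest Kdm3b level of the 6 controls and the lowest array weight of the 12, 0.197, where the weights of the others ranged from 0.395 to 2.93. Without that array the mean Kdm3b difference was 0.71 and passed the threshold (limma adjusted p = 0.0231), but so did 24.1% of all probes, in either direction. With array weights it was 0.77 (limma adjusted p = 0.0025). In that fit 12916 of the 25814 probes tested were called in either direction, and 20.5% were called higher in mutants. Under slide as a block the difference was 0.38 (limma adjusted p = 0.849). Over the 24 settings that gave a value it ranged from 0.33 to 0.77, and the adjusted p from 0.0025 to 0.849.

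**Figure D4:**
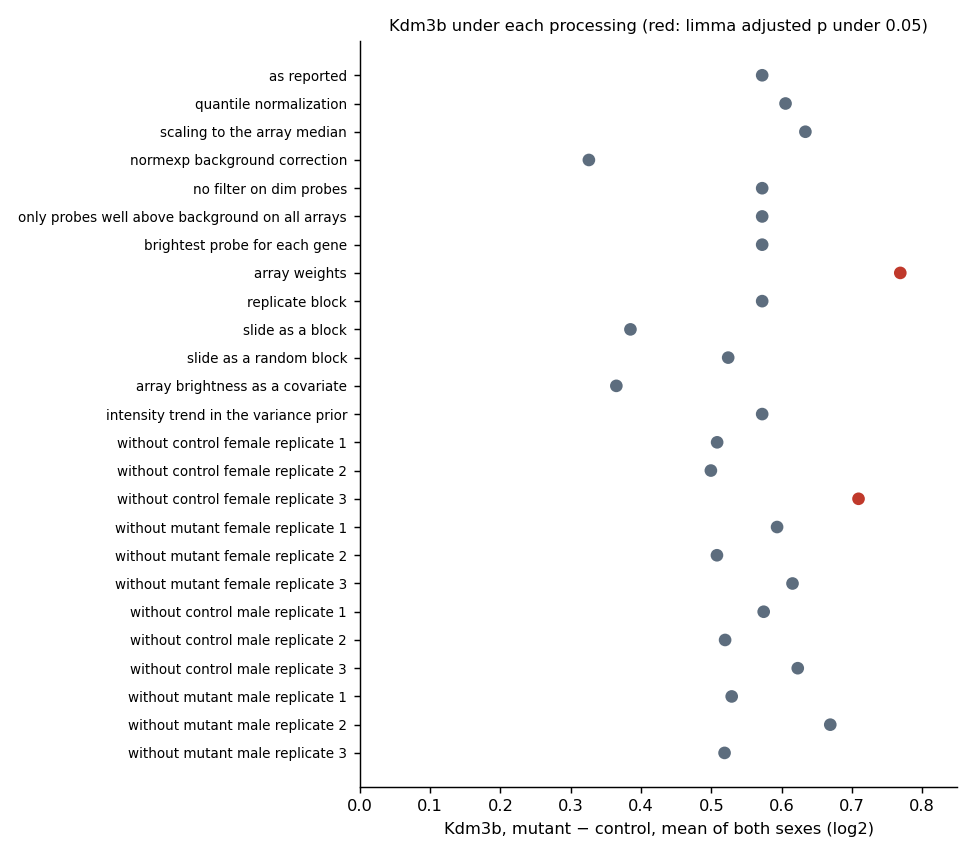
Mean Kdm3b difference between mutants and controls (horizontal axis, log2) under each processing setting; red points have a limma adjusted p under 0.05. All points lie above 0, between 0.33 and 0.77, and the red ones are array weights and the fit without control female 3.

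Jmjd1c, whose own demethylase activity is debated, showed no detectable difference at either probe. At probe 1 (A_51_P103320) control females stood at -2.02, -2.14 and -2.13 and mutant females at -2.06, -2.13 and -1.73. Control males stood at -1.84, -1.86 and -2.17 and mutant males at -2.27, -1.79 and -2.15. All 12 values fell within -2.27 to -1.73 and each group overlapped every other. The difference was 0.12 ± 0.159 in females (95% interval -0.23 to 0.47), -0.11 ± 0.159 in males (-0.46 to 0.24) and 0.0058 ± 0.113 as the mean of both (-0.24 to 0.25, limma adjusted p = 0.976). An exact two-sided permutation within sex gave p = 0.94 for the mean. The interval of the mean allows levels from 84.6% to 119.2% of the control level at this probe.

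Jmjd1c probe 2 (A_51_P417590) was dimmer and more variable. Control females stood at -2.38, -2.97 and -3.14, mutant females at -3.20, -3.67 and -2.68, control males at -2.38, -2.46 and -3.14, and mutant males at -3.11, -2.25 and -2.94. The groups overlapped, and the mean difference was -0.23 ± 0.227 (95% interval -0.73 to 0.27, limma adjusted p = 0.501, exact two-sided permutation p = 0.35). Processed signals at this probe lay between 23.0 and 42.0 on the 12 arrays. Its level fell as the array's brightness rose (r = -0.788, permutation p = 0.003, adjusted 0.00875, and rho = -0.804, permutation p = 0.0026, adjusted 0.0065). The percentile is subtracted from the level, so a signal that does not follow brightness gives a negative r by construction. The permutation accounts neither for this nor for differences between groups and slides. Whether the signal itself fell with brightness was not tested. Without the 2 arrays farthest from the median brightness r was -0.756, and within groups -0.818. With brightness as a covariate the mean difference was 0.13, of the opposite sign. At the other 3 probes r with brightness was -0.411 (Kdm3a probe 1), -0.397 (Kdm3a probe 2) and -0.403 (Jmjd1c probe 1), none past an adjusted p of 0.05. After removal of group means r was -0.201, -0.466 and -0.702 at these probes, the last larger in size than that of Kdm3b.

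Other genes listed for methylation of the same histone lysine, in any methyl state, did not pass the threshold. Of all probes, 0.399% were called in males, 0.294% in females and 0.895% for the mean of both sexes. At such shares, 0 calls in lists this short say little about their genes. Of 9 other demethylases and relatives 8 were tested, 0 were called in either sex or in the mean of both, and 5 of 8 had a positive mean difference, where 43.2% of all probes did. Their median was 0.28 against -0.051 over all probes. Those with the smallest p were Kdm4b, a JmjC demethylase, at 0.38 ± 0.141 (limma adjusted p = 0.187), and Kdm1a, the flavin-dependent demethylase also called LSD1, at 0.31 ± 0.119 (limma adjusted p = 0.193). Of 6 methyltransferases of this lysine 5 were tested, 0 were called and 5 of 5 had a positive mean difference, against the same 43.2% of all probes, with a median of 0.18. Suv39h1 differed by 0.18 ± 0.0794 (limma adjusted p = 0.209) and Ehmt2, known as G9a, by 0.30 ± 0.145 (limma adjusted p = 0.233). Among the hypoxia factors Hif1a, Epas1 and Arnt 0 of 3 were called, with a median of 0.24; Arnt stood at 0.37 ± 0.140 (limma adjusted p = 0.189) and Hif1a at 0.16 ± 0.0958 (limma adjusted p = 0.289).

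Among 8 genes listed as tied to Kdm3a, 7 were tested and Sry, which sets the testis pathway going from the Y chromosome, was called. Of all probes, 0.399% were called in males, 0.294% in females and 0.895% for the mean of both sexes. The list was chosen with earlier results of these data known, so the call of Sry is no independent check of that tie. The Sry probe rose well above background on each control male array and on 0 of 3 mutant male arrays, a level at least 2.66-fold lower. The limma adjusted p of 0.00209 belongs to the measured male change of -1.89, which rests on mutant male arrays at background. The other 6, which include Ppara, Ucp1 and the spermatid genes Tnp1 and Prm1, were not called in either sex, and the median of all 7 was -0.073 for the mean of both sexes.

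The 5 measured genes on each side of Kdm3a on chromosome 6 were examined because they can share its haplotype. Of these 10, 0 were called, where 0.895% of all probes were called for the mean of both sexes. The median of their mean difference was -0.11, against -0.051 over all probes. Mrpl35, a protein of the mitochondrial ribosome, had the smallest p. Female controls stood at 3.66, 3.58 and 2.94 and female mutants at 2.86, 2.68 and 2.94. Control males stood at 3.86, 3.74 and 3.63 and mutant males at 3.11, 3.42 and 3.10, so the males did not overlap and the females did. Of all probes, 12.1% were lower without overlap in mutant males. The mean difference of Mrpl35 was -0.55 ± 0.131 (limma adjusted p = 0.0842). Krcc1 followed at -0.35 ± 0.098 (limma adjusted p = 0.129).

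The genes whose levels ran most like each member over the 12 arrays were taken from 12860 named genes, with no bearing on shared function. For Kdm3a probe 1 they were Vav3 (r = 0.986), Pnliprp2 (0.980), Creb3l4 (0.979) and Myl7 (0.979), where the gap between genotypes makes up most of the range. For Kdm3b they were Abhd17c (0.993), Hmgxb3 (0.991), Frat1 (0.986) and Daxx (0.986). Those 4 had mean differences of 0.26 to 0.49 with limma adjusted p from 0.179 to 0.212. For Jmjd1c probe 1 they were Ccdc88a (0.872), Rbm26 (0.863), Tut4 (0.857) and Bdkrb1 (0.853). The arrays compared share their slide and brightness.

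Markers of other cell types were also measured, and their part in the family's values was not tested. Summed linear levels of the 3 germ cell markers tested of 5 ranged over 0.064 to 0.463 and 0.205 to 0.390 for female controls and mutants, and over 0.343 to 0.403 and 0.356 to 0.774 for male controls and mutants. The 5 markers of mesonephric epithelium, whose cells enter the dissociation, summed to 0.333 to 0.416 in control males and 0.763 to 1.11 in mutant males, which did not overlap. Single probes were higher without overlap in mutant males at 8.07% of all probes. Of the 5 markers 0 were called in males, where 0.399% of all probes were called. Their male changes were 1.89 (Wnt9b), 1.71 (Cdh1), 0.87 (Lhx1), 0.21 (Pax8) and 0.098 (Pax2). Among the 3 control male arrays, Cdh1 was well above background on 1, and Lhx1 and Pax2 each on 2. The male changes and sums thus rest partly on signals not well above background. In females the mesonephric markers summed to 0.475 to 0.669 in controls and 0.352 to 1.08 in mutants. The gonadal markers summed to 38.3 to 58.1 and 45.6 to 65.8 in control and mutant females, and to 34.3 to 42.0 and 37.2 to 50.6 in control and mutant males. The 4 endothelial markers summed to 2.12 to 3.60 over all arrays. The 3 blood and macrophage markers tested of 5 summed to 4.53 to 183.8, the widest range of these lists; haemoglobin Hba-a1, abundant in red cells, is one of them.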

How the data were processed

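Signals were extracted with Agilent Feature Extraction, per the submitters' processing notes, in version 10.5.1.1 on array design 014868, per the file headers. The deposited intensities are linear signals from which the software had subtracted background, without scaling between arrays, per the file headers. From them, log2 of the signal minus log2 of the array's 75th percentile over non-control spots was computed. Outlier spots were left out and spots of a probe averaged. Tested were the 25814 probes that some group measured well above background in every embryo. Accessions were named through a RefSeq table of GRCm38.p6.

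Group means were fitted in limma 3.58.1 under R 4.3.3, with Benjamini-Hochberg adjustment over all tested probes at 0.05. The p-values measure the spread among embryos of a group and do not account for slide, which was also the scan. Where no array of a group reached the well-above-background mark, the fold is a bound: the brighter mean is set against the dim probe, raised on each array to the lowest signal carrying that mark. The fit was tested on simulated data.

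Members, lists and tests were chosen with earlier results of these data known. Named were all member probes, the called or otherwise the 2 lowest-p genes of each list and of the 5 neighbours a side, and the 4 genes most correlated with each member's brighter probe. Each gene outside the family was read by its brightest tested probe. Alternatives were other scalings, filters, weights and blocks, and leaving out arrays. For normexp, with an offset of 50, the median spot signal was used, and outlying local backgrounds were replaced by the array's median. Array weights were estimated gene by gene, because the likelihood method did not converge.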

Additional observations from a re-analysis of the deposited data

How the results depend on the processing

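Both Kdm3a probes kept their direction and stayed past the threshold in males, in females and in the mean under every setting that gave a value. Kdm3b stayed above 0 and passed the adjusted threshold with array weights (0.79 in females, 0.75 in males and 0.77 in the mean). Of the 25814 probes tested, array weights called 7264 in females, 2621 in males and 12916 in the mean. For the mean, Kdm3b also passed without control female 3, where 24.1% of all probes did. That value was 0.71, at the top of a leave-one-out range of 0.50 to 0.71. The exact permutation of the unchanged mean of 0.57 gave p = 0.03, which is for this probe alone and not adjusted over all probes. Jmjd1c differences near 0 changed sign. At probe 1 the female difference was -0.048 with normexp, and the mean was -0.074 with normexp, -0.059 with array weights, -0.077 with slide as a block, -0.016 with slide as a random block and -0.064 to 0.055 leaving out single arrays. At probe 2, brightness as a covariate gave 0.075 in females, 0.18 in males and 0.13 in the mean, and the male value ran from -0.36 to 0.062 leaving out single arrays. The sex difference of Kdm3a probe 1 in controls ran from -0.12 to 0.043 leaving out single arrays. The cause of these changes was not tested.

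Counts of called probes depended on the setting. In females the 76 became 48 with median scaling, 41 with only the groups compared, 7264 with array weights, 18 and 46 with slide as a fixed and a random block, 49 with brightness as a covariate, and 37 to 138 leaving out single arrays. In males the 103 became 47 with no filter on dim probes, 43 with only the groups compared, 2621 with array weights, 63 and 68 with the slide blocks, 67 with brightness, and 34 to 121. For the mean of both sexes the 231 became 12916 with array weights, 66 with slide as a block, 120 with brightness, and 137 to 6230, the highest without control female 3. The difference between the sexes had 0 calls in limma (996 at an unadjusted p under 0.05), 6 with slide as a block and 1 with brightness. The 42 of sex in controls became 26 with probes well above background on all arrays, 15 with only the groups compared, 272 with array weights, 27 with the replicate block, 16 and 19 with the slide blocks, and 23 to 50. Same-numbered arrays of a sex deviated from their group means with correlations of -0.53 to 0.29. With so few arrays in a group, these correlations cannot decide whether the numbers pair embryos. Litters are not given, so the numbers were not taken as pairs. With the replicate block Kdm3a probe 1 changed by -2.27 in females and -1.95 in males, and Kdm3b by 0.57 in the mean (limma adjusted p = 0.168). Median scaling moved the median of all probes in females from -0.054 to 0.057. The number of arrays, and for Kdm3a probe 2 the background, limit the precision.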
